A study of Mus musculus with 36 samples.

Results

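The genes described here are 7 members of the mouse PYHIN family, interferon-inducible genes of distal chromosome 1 that are also called the Ifi200 genes: Ifi202b, Ifi203, Ifi204, Ifi205, Ifi211, Mndal and Aim2. They were taken by symbol from a table of 49568 gene symbols, and were chosen by their counts in these libraries, in which Ifi202b was near silent in C57BL/6J mice. Of the 7, 6 stood under the symbol asked for, and Mnda was read as Ifi211, the gene that RefSeq lists with Mnda as a synonym. All 7 passed the filter on low counts and were among the 18628 genes tested.

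The samples were ligated left carotid arteries of 36 mice, collected 14 days after ligation, which halts blood flow and makes the vessel remodel. Mice of the 129X1/SvJ strain (129X1) and of the C57BL/6J strain (B6) were given 60 mg/kg/day of sacubitril/valsartan (Sac/val), 27 mg/kg/day of valsartan (Val) or 2 mL/kg/day of vehicle (Veh). Dosing was therapeutic, for 7 days starting 7 days after ligation, or prophylactic, for 16 days starting 2 days before it. Valsartan blocks an angiotensin receptor, and sacubitril is a prodrug whose product inhibits the peptidase neprilysin. The 12 groups of strain, treatment and regimen held 3 libraries each, 18 libraries a strain, and all 36 mice had been ligated, so no unoperated artery was compared.

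Most PYHIN proteins, but not all, carry a HIN domain, which binds double-stranded DNA, and most carry a pyrin domain, which recruits partner proteins. Aim2 encodes the receptor that, on binding DNA in the cytosol, assembles with the adaptor encoded by Pycard and with caspase-1 into an inflammasome, a complex that processes interleukin-1 beta and cuts gasdermin D. The protein of Ifi202b, p202, has HIN domains in tandem and no pyrin domain, and in mice it is known as an inhibitor of Aim2. In the artery wall such genes are known mainly from macrophages and other immune cells, and from wall cells exposed to interferon.

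The tissue content of the libraries varied. Summed smooth muscle markers ran between 226 and 2928 CPM in 129X1 (CPM, counts scaled to each library's assigned total) and between 908 and 3493 CPM in B6, and no smooth muscle, endothelial, macrophage or dendritic cell marker was at 0 in any library. Rag1, the recombinase gene of immature lymphocytes, reached 10 CPM or more in 16 libraries, called Rag1-rich below, 12 of 18 in 129X1 and 4 of 18 in B6. The 11 thymocyte and T cell markers summed to between 4.92 and 3124 CPM in 129X1 and between 9.11 and 8205 CPM in B6, with Rag2, Ptcra or Themis at 0 in 6 libraries. Summed macrophage markers had a median of 2566 CPM in 129X1 (769 to 4521) and 4663 CPM in B6 (820 to 7415). In order of animal number the libraries form 3 runs of 12, 8 and 16, each of B6 mice followed by 129X1 mice, and the labels do not say what a run stands for. Libraries of the first run, that of the lowest animal numbers, had the lowest summed neutrophil markers in 11 of the 11 groups that also hold later libraries, and the lowest macrophage and dendritic cell markers in 10 of 11 each. In whole tissue, fewer cells of a type and less RNA per cell cannot be told apart.

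All 13 PYHIN genes of the table lie within 681 kb of chromosome 1 (GENCODE M21 annotation of GRCm38, the build the authors aligned to). In order along the chromosome, the described genes are Aim2 (chr1:173350879-173466040, plus strand), Ifi204 (chr1:173747293-173766943), Mndal (chr1:173849126-173942491), Ifi211 (chr1:173896345-173913046), Ifi203 (chr1:173920407-173942672), Ifi202b (chr1:173962568-173982744) and Ifi205 (chr1:174011998-174031810), the last 6 on the minus strand. Ifi206, Ifi214, Ifi213, Ifi209, Ifi208 and Ifi207, the other 6, stand between Aim2 and Ifi204. The annotated span of Mndal contains Ifi211 and overlaps Ifi203, with 37 exon bases in common with Ifi203 on the same strand.

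Start regions are shown for the genes whose levels are compared as pairs below, and for Ifi202b and Aim2. Each runs from 250 bases before to 50 bases after an annotated start, in the RefSeq table for GRCm38.p6, which is a C57BL/6J assembly, and is read on the gene's strand. Capitals mark GAAANNGAAA, the core of the interferon-stimulated response element, searched on both strands (TTTCNNTTTC on the other strand), with no other motif searched.
Ifi202b, chr1:173982795-173983094, minus strand: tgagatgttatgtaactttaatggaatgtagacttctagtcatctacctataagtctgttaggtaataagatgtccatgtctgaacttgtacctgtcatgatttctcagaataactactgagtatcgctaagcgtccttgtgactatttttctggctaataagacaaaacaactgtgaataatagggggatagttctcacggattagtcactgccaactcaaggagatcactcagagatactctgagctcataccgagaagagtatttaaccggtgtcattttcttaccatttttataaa
Ifi203, the second of its annotated starts, chr1:173942443-173942742, minus strand: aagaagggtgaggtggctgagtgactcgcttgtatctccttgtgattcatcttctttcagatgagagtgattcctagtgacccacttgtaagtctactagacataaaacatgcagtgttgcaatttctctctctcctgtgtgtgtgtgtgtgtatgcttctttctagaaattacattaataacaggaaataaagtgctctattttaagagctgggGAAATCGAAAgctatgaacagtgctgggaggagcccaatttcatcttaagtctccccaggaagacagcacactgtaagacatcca
Mndal, the first of its annotated starts, chr1:173880138-173880437, minus strand: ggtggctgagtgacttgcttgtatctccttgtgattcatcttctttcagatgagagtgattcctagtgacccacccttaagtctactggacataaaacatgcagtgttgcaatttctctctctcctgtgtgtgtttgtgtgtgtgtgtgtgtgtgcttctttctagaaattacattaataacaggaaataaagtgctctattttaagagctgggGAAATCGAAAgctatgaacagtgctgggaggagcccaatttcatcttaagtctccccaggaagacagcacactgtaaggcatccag
Ifi205, chr1:174031706-174032005, minus strand: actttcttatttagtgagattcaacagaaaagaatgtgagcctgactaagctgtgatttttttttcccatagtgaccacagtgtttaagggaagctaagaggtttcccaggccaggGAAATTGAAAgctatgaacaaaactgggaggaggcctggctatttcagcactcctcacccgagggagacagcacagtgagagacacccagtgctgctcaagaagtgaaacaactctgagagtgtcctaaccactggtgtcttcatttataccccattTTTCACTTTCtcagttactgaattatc
Ifi211, chr1:173912997-173913296, minus strand: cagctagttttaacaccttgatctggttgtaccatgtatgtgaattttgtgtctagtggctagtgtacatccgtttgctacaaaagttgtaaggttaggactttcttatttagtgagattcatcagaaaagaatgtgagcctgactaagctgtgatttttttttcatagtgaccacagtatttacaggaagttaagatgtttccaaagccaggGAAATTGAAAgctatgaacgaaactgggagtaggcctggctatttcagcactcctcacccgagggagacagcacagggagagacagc
Aim2, chr1:173420354-173420653, plus strand: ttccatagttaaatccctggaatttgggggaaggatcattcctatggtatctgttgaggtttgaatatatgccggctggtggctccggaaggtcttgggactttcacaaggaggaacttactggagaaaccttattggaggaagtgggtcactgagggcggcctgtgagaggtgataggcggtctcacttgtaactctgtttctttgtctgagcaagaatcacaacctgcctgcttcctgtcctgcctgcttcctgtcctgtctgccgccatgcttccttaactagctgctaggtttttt
Of the regions printed, those of Ifi203 and Mndal were the most alike, with 282 of 289 aligned bases identical (97.6%), followed by Ifi205 and Ifi211 with 189 of 201 (94.0%). The shared element GAAATCGAAA began 35 bases before the start of Ifi203 and 36 bases before that of Mndal, and GAAATTGAAA began 37 bases before the start of Ifi211 and 134 bases before that of Ifi205. The letters were not in the windows of Ifi202b and Aim2. Of the 6 described genes with a region in the table, 4 held a match, as did 5 of the other 6 PYHIN genes. Over all genes, 1131 of 32851 start regions (3.44%) held one. A gene was counted if any of its regions matched, while the share over all genes counts single regions, of 27025 symbols, so the measures differ. The first annotated start of Ifi203, not printed, held no match, and the second of Mndal held 1 on the other strand.

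The family also shares sequence inside its transcripts, which limits how well reads can be assigned. No 50-base stretch of the annotated Ifi202b transcript (0 of 1648) occurred in a transcript of another gene on either strand, and for Aim2 the share was 0.742%. It was 12.4% for Ifi203, 18.6% for Ifi205, 19.6% for Mndal and 20.0% for Ifi204. For Ifi211 it was 72.8%, and 44.7% were shared with Ifi205 alone. How reads that fit more than 1 gene were treated is not given in the sources used here, and neither is the strand setting of the counting. Values of Ifi211, and to a lesser degree of Ifi203, Ifi204, Ifi205 and Mndal, are therefore uncertain as values of single genes.

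Ifi202b set the strains apart. In 129X1 its lowest, median and highest CPM over 18 libraries were 7.52, 17.5 and 26.3, and in B6 they were 0, 0 and 2.58. Every 129X1 library lay above every B6 library, as it did for 1.18% of the 18628 genes tested. Since the gene was chosen for this difference, the comparison is a description and carries no test. The 129X1 libraries held 6920 Ifi202b counts in all and the B6 libraries 97, a ratio of CPM of 76.5 (95% interval 62.6 to 94.5 for counting error alone).

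**Figure D1:**
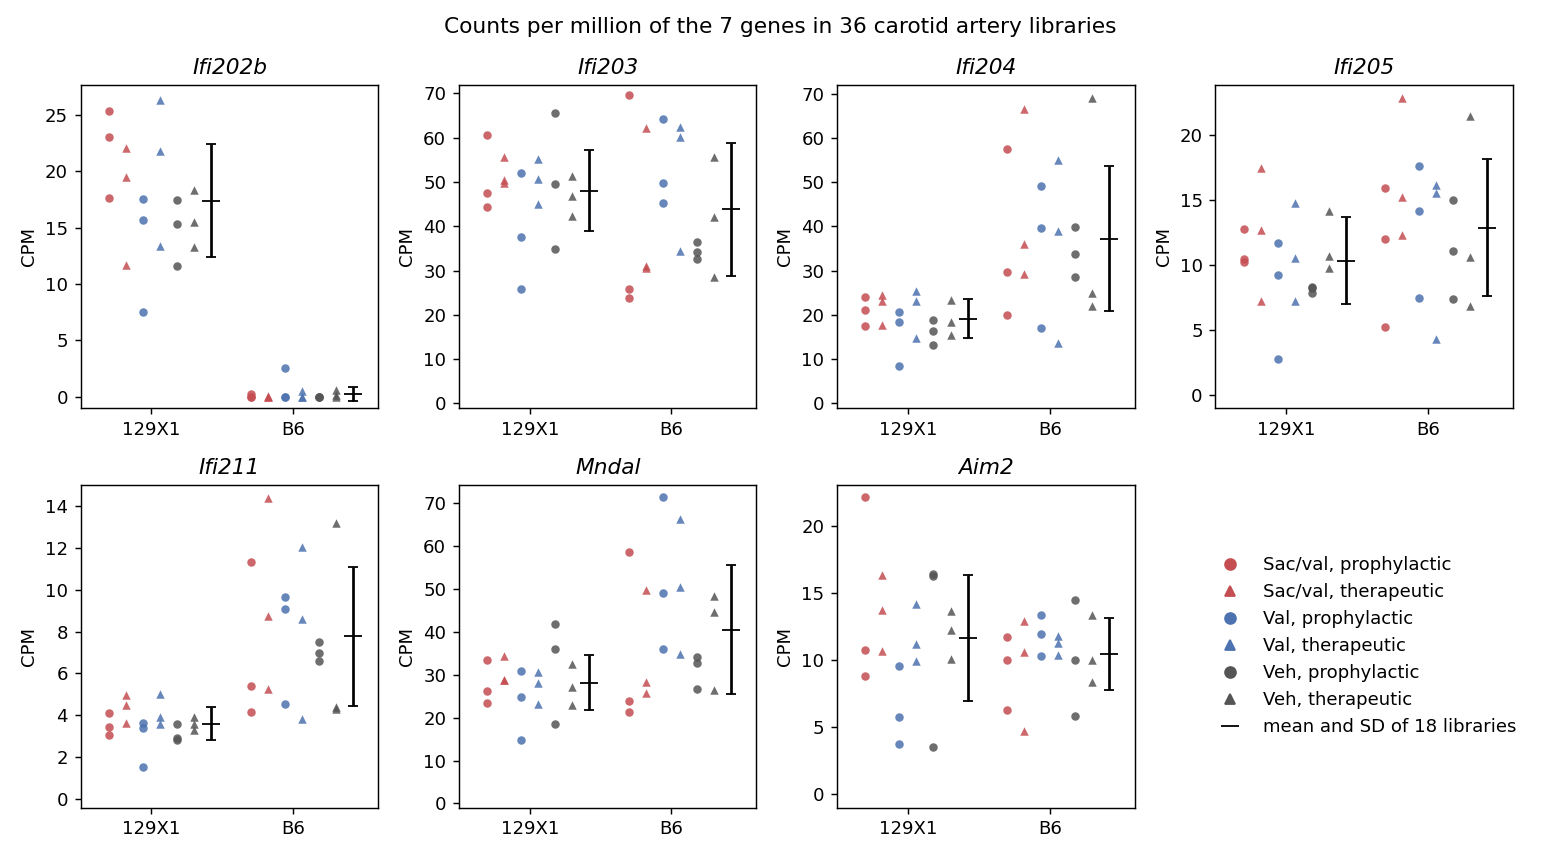
CPM of each of the 7 genes (vertical axis, linear) in the 36 libraries, 129X1 at left and B6 at right, coloured by treatment with circles for the prophylactic and triangles for the therapeutic regimen; the bar is the mean with its SD over 18 libraries. Ifi202b lies at 7.52 CPM or more in 129X1 and at 2.58 CPM or less in B6, and the other 6 genes overlap between the strains.

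In B6 the Ifi202b counts were spread unevenly. No count was found in 12 of the 18 B6 libraries, where 3 counts would have been 0.108 to 0.144 CPM. The library of Val prophylactic replicate 1 held 62 of the 97 (63.9%), and it was also the B6 library with the highest Rag1, at 1591 CPM. The other B6 libraries with Ifi202b counts were Veh therapeutic replicate 2 (14 counts, Rag1 at 756 CPM), Val therapeutic replicate 1 (11 counts, 869.5 CPM) and Veh therapeutic replicate 3 (3 counts, 126 CPM). Sac/val prophylactic replicate 2 held 5 counts and Sac/val therapeutic replicate 2 held 2, with Rag1 at 0.0799 and 1.81 CPM. Thus 90 of the 97 counts came from the 4 Rag1-rich B6 libraries, and 7 from the other 14. The part of lymphoid cells in these counts was not tested.

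In 129X1 the level did not go with Rag1 in this way. The 12 Rag1-rich libraries ranged between 11.7 and 26.3 CPM of Ifi202b, and the other 6 between 7.52 and 25.4 CPM. Outside the Rag1-rich libraries, the 6 of 129X1 held 2194 Ifi202b counts and the 14 of B6 held 7, a ratio of CPM of 825 (95% counting interval 400 to 2055). The setting was chosen after seeing the data, and it left out the 4 B6 libraries that held 90 of the 97 B6 counts. The larger ratio follows from that choice, and its interval leaves out the spread between mice.

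**Figure D2:**
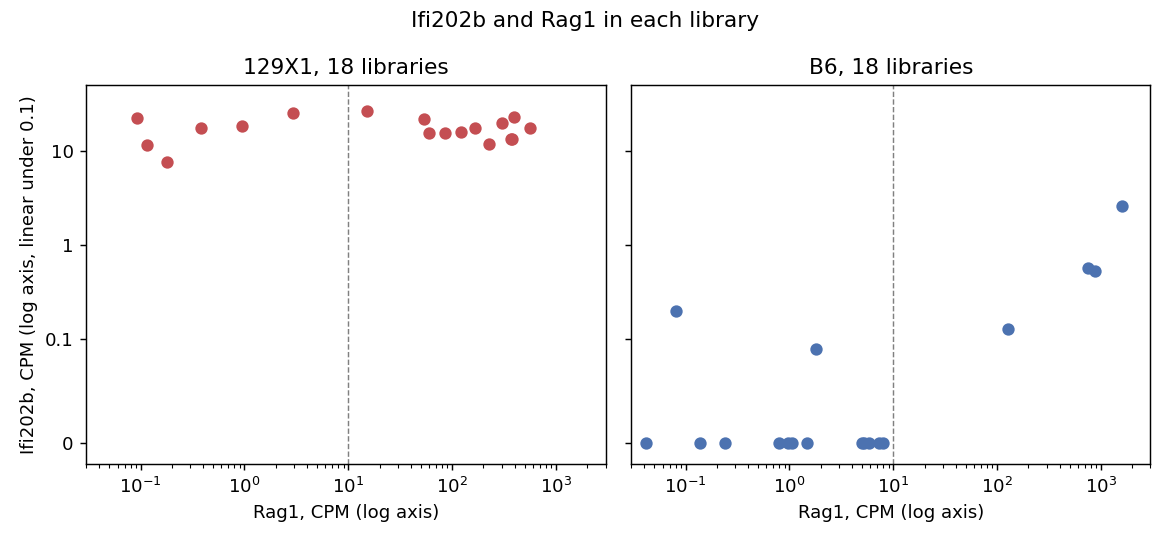
Ifi202b CPM (vertical, logarithmic above 0.1 and linear below) against Rag1 CPM (horizontal, logarithmic) in each 129X1 library at left and each B6 library at right; the dashed line marks 10 CPM of Rag1. All 4 B6 libraries right of the line hold Ifi202b counts, against 2 of 14 left of it, while the 129X1 libraries lie between 7.52 and 26.3 CPM on both sides.

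None of the other 6 genes separated the strains. Ifi204, whose protein p204 is known in mouse macrophages as a sensor of DNA and a regulator of differentiation, ran between 8.55 and 25.5 CPM (median 18.7) in 129X1 and between 13.7 and 68.9 CPM (median 35.0) in B6. Its fitted log2 difference, 129X1 minus B6 over the 6 pairs of groups, was -0.96 (SE 0.19). Ifi211 ran between 1.52 and 5.02 CPM (median 3.60) in 129X1 and between 3.85 and 14.4 CPM (median 7.23) in B6, a difference of -1.11 (SE 0.18). For both genes most 129X1 libraries were low, the B6 libraries spread widely upward, and the strains overlapped.

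Ifi205, whose product has been tied to the level of the inflammasome adaptor ASC in mouse macrophages, had medians of 10.4 CPM in 129X1 (2.77 to 17.5) and 13.2 CPM in B6 (4.33 to 22.9), with a difference of -0.32 (SE 0.21). Mndal had medians of 28.4 CPM in 129X1 (14.9 to 41.9) and 35.4 CPM in B6 (21.3 to 71.5), with a difference of -0.50 (SE 0.15). Ifi203 had medians of 49.6 CPM in 129X1 (25.8 to 65.5) and 39.2 CPM in B6 (23.9 to 69.6), with a difference of 0.14 (SE 0.14). Aim2 had medians of 11.0 CPM in 129X1 (3.55 to 22.2) and 10.5 CPM in B6 (4.75 to 14.5), with a difference of 0.12 (SE 0.18). The ranges of these 4 genes overlapped between the strains. Without the Rag1-rich libraries the difference of Aim2 was -0.44 and that of Ifi203 was -0.03, and with a thymocyte and T cell score as covariate that of Aim2 was -0.09, so their direction turned. Within the 3 runs of animal numbers, as means of log2 CPM over the 5, 2 and 5 pairs of groups present, 129X1 minus B6 was -0.96, 0.34 and -0.27 for Mndal, -0.20, 1.02 and 0.33 for Ifi203 and -0.21, 0.37 and -0.15 for Ifi205. It was below 0 in each run for Ifi204 and Ifi211, and above 0 in each for Ifi202b and Aim2. The median log2 difference of the 7 genes was -0.32, beside -0.02 over all genes tested, and the 7 counts summed to 1 feature differed by -0.14 (SE 0.13).

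Of 13 macrophage markers, 9 fell and 0 rose in 129X1 (edgeR, Benjamini-Hochberg adjusted over all genes), with none at 0 in any library and the summed levels given above. With a macrophage score as covariate the difference of Ifi204 was -0.32, that of Ifi211 was -0.58, that of Ifi205 turned to 0.32 and the median of the 7 to 0.13. Those of Ifi202b (7.08), Ifi203 (0.13), Mndal (-0.58) and Aim2 (0.36) kept their direction. The part of macrophage content in the strain differences was not tested beyond this covariate.

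Per length, the order of the genes differed between the strains. In CPM per kb of merged exons, the 129X1 means over 18 libraries were 10.2 ± 2.96 (SD) for Ifi202b, 7.76 ± 1.78 for Mndal, 7.17 ± 1.38 for Ifi203, 5.38 ± 1.26 for Ifi204, 3.32 ± 1.34 for Aim2, 2.48 ± 0.803 for Ifi205 and 2.02 ± 0.453 for Ifi211. In B6 they were 11.2 ± 4.15 for Mndal, 10.5 ± 4.62 for Ifi204, 6.53 ± 2.25 for Ifi203, 4.35 ± 1.85 for Ifi211, 3.08 ± 1.26 for Ifi205, 2.98 ± 0.767 for Aim2 and 0.134 ± 0.361 for Ifi202b. Neighbours in each order differed by less than the larger of their SDs, except Ifi203 and Ifi204, and Ifi204 and Aim2, in 129X1 and Aim2 and Ifi202b in B6. Ifi202b thus had the highest per-length mean of the 13 PYHIN genes in 129X1, with Ifi207 at 9.53 ± 2.56 within its SD, and Ifi207 had the highest in B6, at 15.2 ± 5.54. The merged exons were shortest for Ifi202b, at 1.70 kb, against 6.71 kb for Ifi203 and 8.11 kb for Ifi214. Ifi202b also shares no 50-base stretch with another gene. The part of exon length and of shared sequence in this order was not tested.

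**Figure D3:**
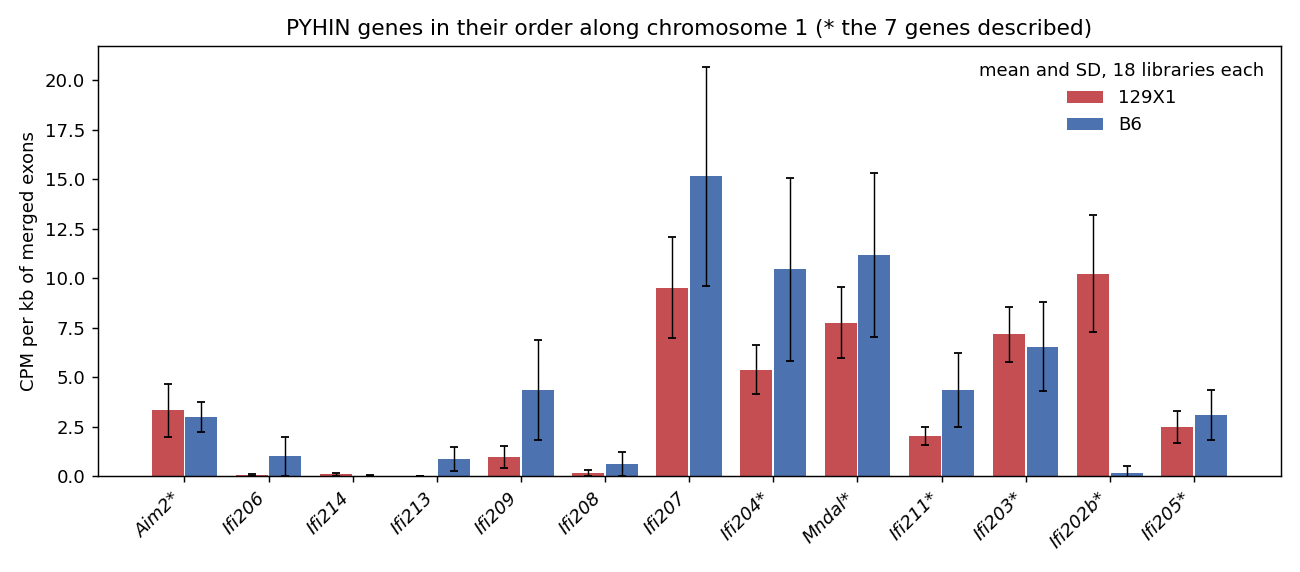
Mean CPM per kb of merged exons (bars, axis starting at 0) with SD over 18 libraries, 129X1 left of B6, for the 13 PYHIN genes in their order along chromosome 1; asterisks mark the 7 genes described. Ifi202b reaches 10.2 in 129X1 and 0.134 in B6, while Ifi213, Ifi209 and Ifi206 are higher in B6.

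The other 6 PYHIN genes, which the choice of the 7 did not use, were tested, and 5 fell and 1 rose in 129X1 (edgeR, Benjamini-Hochberg adjusted over all genes), where 17.5% of all genes tested fell and 16.3% rose, 33.8% together. Ifi213 averaged 0.0614 ± 0.0710 CPM in 129X1 and 5.84 ± 4.15 CPM in B6 (SD, n = 18 each; edgeR adjusted p = 1.05e-10). All 129X1 libraries lay below all B6 libraries, as was so for 0.832% of genes tested. Ifi213 thus stood opposite to Ifi202b, with 26 counts over the 18 libraries of 129X1 and 2553 over those of B6.

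Ifi206, Ifi209, Ifi208 and Ifi207 also fell in 129X1, with overlapping libraries. Ifi206 averaged 0.147 ± 0.199 CPM in 129X1 and 3.03 ± 2.97 CPM in B6 (edgeR adjusted p = 5.03e-06, n = 18 each). Ifi209 averaged 3.40 ± 2.04 CPM in 129X1 and 15.4 ± 8.97 CPM in B6 (edgeR adjusted p = 3.07e-06, n = 18 each). Ifi208 had 0.802 ± 0.714 CPM in 129X1 and 3.13 ± 3.17 CPM in B6 (edgeR adjusted p = 0.0012, n = 18 each), and Ifi207, the most abundant of the 6, averaged 32.6 ± 8.77 CPM in 129X1 and 51.9 ± 18.96 CPM in B6 (edgeR adjusted p = 0.00602, n = 18 each). Ifi214 rose, and averaged 0.704 ± 0.694 CPM in 129X1, against 0.203 ± 0.164 CPM in B6 (edgeR adjusted p = 0.00216, n = 18 each), but missed the threshold once Rag1-rich libraries were left out, a setting added after seeing the data. GRCm38 carries the B6 sequence, and how well reads of 129X1 from this cluster aligned to it was not tested.

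Most tested genes of DNA sensing, interferon signalling and the interferon response also fell in 129X1. Of 18 tested genes of DNA sensing and the inflammasome, 12 fell, 1 rose and 5 did not pass, with a median log2 difference of -0.50. Those with the smallest p were Zbp1, a sensor of Z-form nucleic acid (log2 difference -1.88, SE 0.24, edgeR adjusted p = 6.82e-07), Mb21d1, which encodes the DNA sensor cGAS (-0.87, SE 0.14), the pore-forming gasdermin gene Gsdmd (-0.51, SE 0.09) and the transcription factor gene Irf3 (-0.36, SE 0.08). Il18 was the 1 that rose (0.50, SE 0.11). Pycard and Casp1, named as the partners of Aim2, did not pass. Pycard averaged 28.5 ± 15.2 CPM in 129X1 and 29.8 ± 17.9 CPM in B6, and Casp1 averaged 15.4 ± 3.73 CPM in 129X1 and 18.8 ± 5.69 CPM in B6 (SD, n = 18 each). With the macrophage score as covariate, 4 fell and 3 rose, and without the Rag1-rich libraries 6 fell and 1 rose.

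Of 15 tested genes of the interferon receptors and their signalling, 9 fell, 0 rose and 6 did not pass (median -0.34). Irf7, the interferon master regulator, had a log2 difference of -1.65 (SE 0.25, edgeR adjusted p = 9.72e-06), Irf9 and Stat2, both parts of the complex that binds the response element shown above, had -0.69 (SE 0.10) and -0.70 (SE 0.11), and the feedback inhibitor Usp18 had -1.52 (SE 0.25). Of 36 interferon-stimulated genes, 30 fell, 2 rose and 4 did not pass (median -1.04). Bst2, which tethers budding virus, had -1.50 (SE 0.14, edgeR adjusted p = 3.16e-09), and Oasl2 -1.68 (SE 0.19), Lgals3bp -1.08 (SE 0.13) and Dhx58 -1.24 (SE 0.15). Xaf1 (0.94, SE 0.12) and Ifi27 (0.54, SE 0.15) were the 2 that rose, named after their values were seen. With the macrophage score, 8 of the signalling genes and 27 of the stimulated genes were called lower.

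B cell markers (8 of 9) and brown fat markers (5 of 5) rose in 129X1, and neutrophil markers (5 of 7) and dendritic cell markers (4 of 9) fell. The B cell markers summed to a median of 13.6 CPM in 129X1 (2.01 to 332) and 6.08 CPM in B6 (3.31 to 30.0). The strains thus overlapped, and the highest 129X1 sums lay far above the median. Bst2 stands in both the dendritic cell and the interferon-stimulated list. Of 11 thymocyte and T cell markers 1 rose, Prss16, with a median log2 difference of 2.11 over the list. Prss16 averaged 133 ± 138 CPM in 129X1 and 135 ± 299 CPM in B6 (SD), so its mean CPM did not rise. Of the remaining lists, 1 of 6 smooth muscle, 1 of 5 endothelial and 1 of 5 thyroid markers fell and 1 of 6 skeletal muscle markers rose. Skeletal muscle markers summed to between 9.77 and 31990 CPM in 129X1 and between 54.7 and 19330 CPM in B6, so muscle content differed widely inside both strains. The part of these tissues in the family's values was not tested.

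Within a strain, the genes varied together in sets. Ifi204, Ifi205 and Ifi211 went together over the 18 libraries of each strain, with Pearson's r of log2 CPM between 0.83 and 0.89 in 129X1 and between 0.86 and 0.95 in B6. Ifi203 and Mndal formed another set, with r of 0.93 in 129X1 and 0.96 in B6. Between the sets r was lower, with 0.65 in 129X1 and 0.31 in B6 for Ifi203 and Ifi204, and 0.40 in 129X1 and 0.00 in B6 for Mndal and Ifi205. The libraries share their depth scaling and tissue content, and transcripts of Ifi204, Ifi205 and Ifi211 share sequence, so these values are given as a description.

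Ifi202b, which shares no 50-base stretch, went with the first set in 129X1, with r of 0.92 against Ifi204, 0.81 against Ifi205 and 0.78 against Ifi211, and of 0.55 and 0.43 against Ifi203 and Mndal. The ratio of Ifi202b to Ifi204 CPM stayed between 0.660 and 1.09 over the 18 libraries of 129X1 (median 0.899). Aim2 went with Ifi203 and Mndal in 129X1 (r of 0.89 and 0.85), and in B6 these were 0.14 and 0.24.

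**Figure D4:**
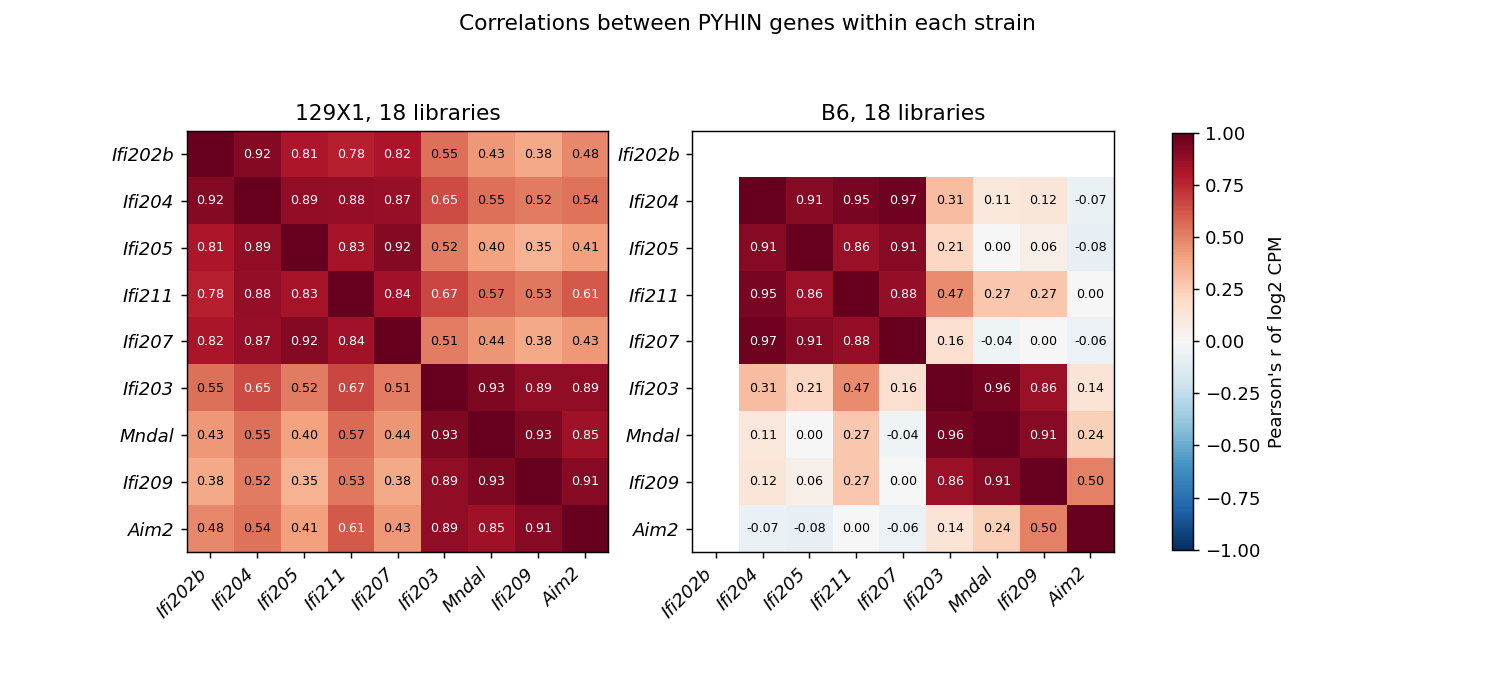
Pearson's r of log2 CPM between PYHIN genes over 18 libraries of 129X1 at left and 18 of B6 at right, on a colour scale from -1 to 1; Ifi202b is left blank in B6, where 12 libraries had no count. Ifi204, Ifi205, Ifi211 and Ifi207 form 1 block and Ifi203, Mndal and Ifi209 another in both strains, and Aim2 has r of 0.85 to 0.91 with Ifi203, Mndal and Ifi209 in 129X1.

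Cell markers were correlated with the genes over the same libraries. In 129X1, the mean log2 CPM of the macrophage markers had r of 0.84 with Ifi202b, 0.79 with Ifi204, 0.70 with Ifi211, 0.65 with Ifi205 and 0.50 with Ifi203. In B6 it had 0.71 with Ifi204, 0.64 with Ifi211, 0.69 with Ifi205 and -0.23 with Ifi203. Aim2 went with the mean log2 CPM of the dendritic cell markers, in which each gene weighs alike, at 0.86 in 129X1 and 0.89 in B6. With that of the thymocyte and T cell markers it had 0.80 in 129X1 and 0.19 in B6. The r of Aim2 with the remaining marker lists is not given here, so these values do not single out dendritic cells.

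Among all genes at a mean of 5 CPM or more outside the 7 (12492 genes), the closest in pattern were ranked by the lower of the 2 within-strain r values. In 129X1, r was 0.94 between Ifi203 and Trim30a, 0.90 with Zbp1 and 0.88 with Ifi44, and in B6 these were 0.93, 0.96 and 0.95. Mndal was closest to Ifi209 (0.93 in 129X1, 0.91 in B6), Sp100 (0.90 in 129X1, 0.92 in B6) and Trim30a (0.93 in 129X1, 0.90 in B6). Ifi204 was closest to Ifi207 (0.87 in 129X1, 0.97 in B6), Dpt (0.84 in 129X1, 0.85 in B6) and Emilin2 (0.84 in 129X1, 0.83 in B6). Ifi207 also led for Ifi205 (0.92 in 129X1, 0.91 in B6), followed by Il1rl2 (0.81 in 129X1, 0.89 in B6) and Lamp2 (0.81 in 129X1, 0.80 in B6), and for Ifi211 (0.84 in 129X1, 0.88 in B6), followed by Plac8 (0.88 in 129X1, 0.84 in B6) and Pla2g4a (0.79 in 129X1, 0.78 in B6). Aim2 was closest to Inpp5d (0.96 in 129X1, 0.93 in B6), Fam105a (0.94 in 129X1, 0.92 in B6) and Lpxn (0.95 in 129X1, 0.91 in B6). Ifi202b, ranked in 129X1 alone, was closest to Ctsk (0.93), Pdpn (0.93) and Il13ra1 (0.92). Each r was also taken without the 2 libraries farthest from the median of the partner gene, not of the described gene. The lowest of these values in 129X1 were 0.43 for Ifi205 and Il1rl2 and 0.46 for Ifi211 and Ifi207. Those 2 thus rested in part on libraries where Il1rl2 or Ifi207 was far from its median.

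The counts assigned to Ifi203 and Mndal, whose start regions are nearly the same, kept different proportions in the strains. The ratio of Mndal to Ifi203 CPM ran between 0.513 and 0.728 in 129X1 (median 0.574) and between 0.795 and 1.12 in B6 (median 0.919), over 18 libraries each. All 129X1 libraries were below all B6 libraries in this ratio, although the ranges of both genes overlapped. The ratio of Ifi211 to Ifi205, the other pair of like start regions, overlapped between the strains. It ran between 0.2655 and 0.548 in 129X1 and between 0.406 and 0.94 in B6. The ratios of Ifi204 to Ifi203 and of Ifi204 to Ifi205 also overlapped. How often ratios of other gene pairs separate the strains was not counted. These ratios were formed after the strain values had been seen and are given with no test. Ifi203 and Mndal share transcript sequence, and how well their 129X1 reads aligned to the B6 reference was not tested.

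The drugs were compared next. No described gene passed in any of the 28 comparisons of treatment, regimen or their interactions (edgeR quasi-likelihood, adjusted over 18628 genes), in each of which 0% of the genes tested passed. DESeq2 also called 0 of the 7 in each. At an unadjusted p under 0.05, edgeR had 0 of the 7 for Sac/val minus Veh and for Sac/val minus Val as means over the 4 combinations of strain and regimen, and 1 for Val minus Veh, which was Ifi202b (edgeR adjusted p = 0.986). Of all 18628 genes tested, 293, 491 and 453 had such a p in these comparisons, in that order. Within strains or regimens, Ifi202b, Mndal and Aim2 had such values, and the main ones are given below by gene. In the comparisons within a strain where a described gene had such a value, between 318 and 4346 of all genes did. The 95% intervals on the log2 scale had a median half-width of 0.38 over all genes in these means, of 0.54 within a strain and of 0.75 within a strain and regimen.

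Ifi202b in 129X1 ran between 11.7 and 25.4 CPM (median 20.7) under Sac/val, between 7.52 and 26.3 CPM (median 16.6) under Val and between 11.6 and 18.3 CPM (median 15.4) under Veh, 6 libraries each. The groups overlapped, with log2 differences of 0.38 for Sac/val minus Veh (95% interval -1.17 to 1.92), 0.13 for Val minus Veh (-1.41 to 1.67) and 0.24 for Sac/val minus Val (-1.30 to 1.78). These intervals rest on a spread estimated over all 36 libraries, the near-silent B6 libraries included.

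In B6 the Ifi202b counts summed to 7 over the 6 Sac/val libraries, 73 over the 6 Val libraries and 17 over the 6 Veh libraries. Prophylactic Val held 62, 0 and 0 counts and prophylactic Veh 0, 0 and 0, with an edgeR unadjusted p of 0.00288 and an adjusted p of 0.474. All 62 were in the library with Rag1 at 1591 CPM, and without it both groups were at 0. For Sac/val minus Val over both regimens of B6 the edgeR unadjusted p was 0.0208 and the adjusted p 0.158. Fitted differences of Ifi202b in B6 rest on groups with under 20 counts and are not given.

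Aim2 in prophylactic 129X1 stood at 10.8, 22.2 and 8.85 CPM under Sac/val, at 5.75, 3.76 and 9.53 CPM under Val and at 3.55, 16.3 and 16.5 CPM under Veh. Val libraries were mostly low, and 1 Veh library was lower than all of them. Sac/val minus Val had a log2 difference of 1.13 (95% interval 0.21 to 2.06, edgeR adjusted p = 0.805) and Val minus Veh one of -0.93 (-1.85 to -0.01, adjusted p = 0.892). Without 129X1 Sac/val prophylactic replicate 2 the first was 0.63. Over both regimens Sac/val minus Val in 129X1 was 0.67 (0.02 to 1.32, edgeR unadjusted p = 0.0428), and 0.42 without that library. Dendritic cell markers, whose 9 genes were above 0 in all libraries, summed in these groups to between 151.5 and 381 CPM under Sac/val and between 51.0 and 288 CPM under Veh. Under Val their lowest sum was 81.4 CPM and their highest lay below the highest of both other treatments, and their part in the Aim2 values was not tested. Thymocyte and T cell markers summed to 1404, 2480 and 49.8 CPM in the Sac/val libraries, to 6.89, 4.92 and 582 CPM in the Val libraries and to 7.21, 708 and 2763 CPM in the Veh libraries, in the order of the Aim2 values. The 3 libraries with the lowest Aim2 thus had the 3 lowest sums, and all 3 belong to the first run of animal numbers. With the thymocyte and T cell score as covariate the prophylactic differences were 0.84 for Sac/val minus Val and -0.66 for Val minus Veh, and with the run as block they were 1.02 and -0.77. Without the Rag1-rich libraries they were 0.90 and 0.42, so Val minus Veh turned. Only Sac/val replicate 3, Val replicates 1 and 2 and Veh replicate 1 of these groups were then left. Both differences thus rest on a single library of Sac/val or Veh. In therapeutic 129X1 the Aim2 values were 13.8, 16.4 and 10.7 CPM under Sac/val, 14.2, 11.2 and 9.92 CPM under Val and 10.1, 13.7 and 12.3 CPM under Veh, and overlapped. In B6 Aim2 ran between 4.75 and 13.0 CPM under Sac/val, between 10.3 and 13.4 CPM under Val and between 5.87 and 14.5 CPM under Veh, 6 libraries each.

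Mndal in B6 ran between 21.3 and 58.6 CPM (median 27.1) under Sac/val, between 34.8 and 71.5 CPM (median 49.8) under Val and between 26.4 and 48.5 CPM (median 33.6) under Veh. Val libraries were mostly high and the groups overlapped. The log2 difference was -0.57 for Sac/val minus Val (95% interval -1.09 to -0.04, edgeR adjusted p = 0.185) and 0.54 for Val minus Veh (0.02 to 1.07, adjusted p = 0.820). Over all genes, 4346 had an unadjusted p under 0.05 for Sac/val minus Val in B6, and DESeq2 called 775, none of them a described gene. Without the Rag1-rich libraries the Mndal differences were -0.30 for Sac/val minus Val and 0.14 for Val minus Veh, and the 2 B6 Val libraries with the highest Mndal, at 71.5 and 66.35 CPM, were among those left out. Thymocyte and T cell markers summed to between 9.11 and 56.3 CPM under Sac/val, between 10.95 and 8205 CPM under Val and between 12.7 and 4042 CPM under Veh in B6, and their part was not tested. In 129X1 Mndal ran between 23.4 and 34.3 CPM under Sac/val, between 14.9 and 31.0 CPM under Val and between 18.6 and 41.9 CPM under Veh, with differences of 0.20 for Sac/val minus Val and -0.23 for Val minus Veh. The difference between the strains in Val minus Veh, 129X1 minus B6, was -0.77 (-1.52 to -0.03, edgeR adjusted p = 0.633).

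For Sac/val minus Val and Val minus Veh, Ifi203 had differences of the same signs as Mndal, smaller in B6. In B6 it ran between 23.9 and 69.6 CPM under Sac/val, between 34.4 and 64.1 CPM under Val and between 28.6 and 55.6 CPM under Veh, with log2 differences of -0.38 for Sac/val minus Val (95% interval -0.87 to 0.12) and 0.47 for Val minus Veh (-0.03 to 0.96). Sac/val minus Val in B6 was -0.72 for Ifi203 and -0.87 for Mndal without B6 Sac/val prophylactic replicate 1, and -0.25 for Ifi203 without replicate 2 of that group. In 129X1 the Ifi203 difference was 0.22 for Sac/val minus Val and -0.14 for Val minus Veh. Both strains' treatment groups overlapped.

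For Ifi204, Ifi205 and Ifi211 every interval between treatments spanned 0. As means over the 4 combinations, Sac/val minus Veh was 0.20 (95% interval -0.28 to 0.69) for Ifi204, 0.23 (-0.29 to 0.75) for Ifi205 and 0.21 (-0.25 to 0.66) for Ifi211. Single libraries moved these by over 1.5 times. Without B6 Sac/val prophylactic replicate 1 they were 0.07 for Ifi204, 0.14 for Ifi205 and 0.07 for Ifi211, and without B6 Veh therapeutic replicate 1 they were 0.38, 0.37 and 0.39. Val minus Veh was 0.02 (-0.47 to 0.50) for Ifi204, 0.00 (-0.52 to 0.52) for Ifi205 and 0.10 (-0.36 to 0.55) for Ifi211. Sac/val minus Val was 0.19 (-0.30 to 0.67) for Ifi204, 0.23 (-0.29 to 0.76) for Ifi205 and 0.11 (-0.35 to 0.56) for Ifi211.

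**Figure D5:**
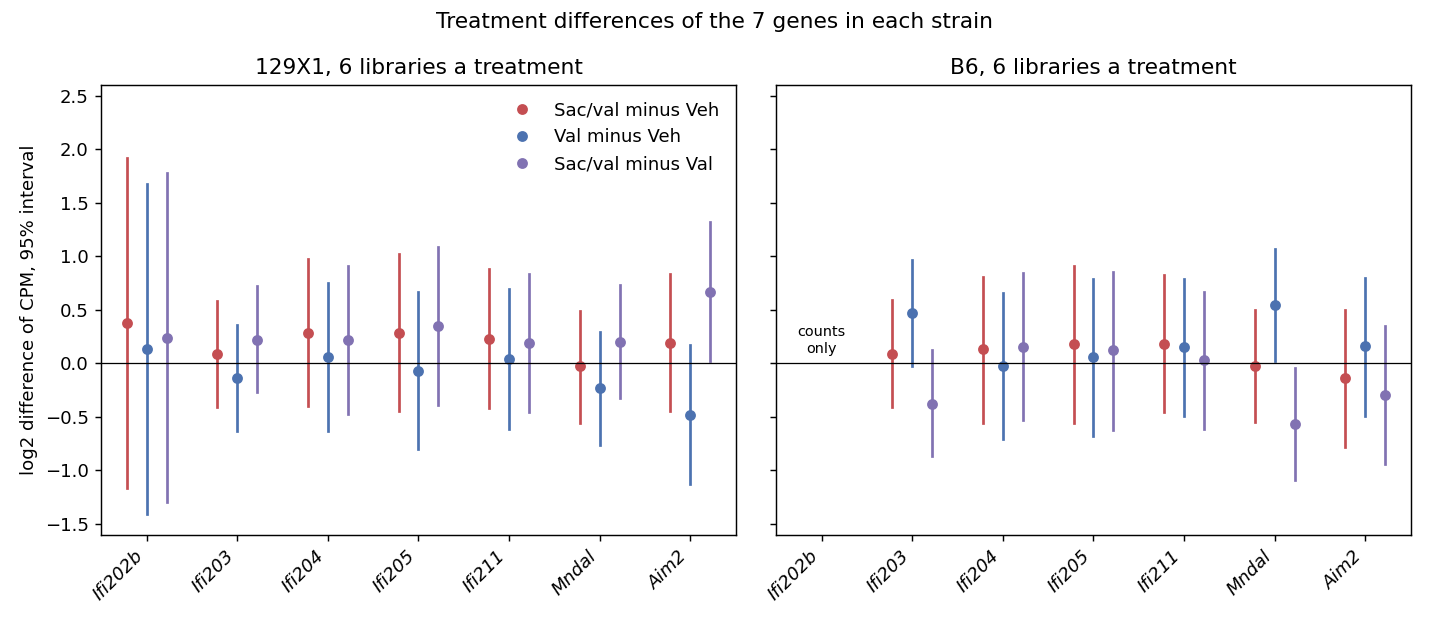
Log2 differences of CPM between treatments (points) with 95% intervals (lines) for each of the 7 genes, in 129X1 at left and B6 at right, each over 6 libraries a treatment; Ifi202b in B6 has counts only. Most intervals span 0, and those that do not, Aim2 in 129X1 and Mndal in B6, have adjusted p values of 0.185 or more.

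The regimens were compared over all 6 pairs of strain and treatment. Therapeutic minus prophylactic differences were 0.11 (95% interval -0.18 to 0.39) for Ifi203, 0.20 (-0.19 to 0.60) for Ifi204, 0.30 (-0.12 to 0.73) for Ifi205, 0.27 (-0.10 to 0.65) for Ifi211, 0.07 (-0.23 to 0.38) for Mndal and 0.14 (-0.23 to 0.51) for Aim2. Ifi202b in 129X1 ran between 11.7 and 26.3 CPM (median 18.3) in 9 therapeutic libraries and between 7.52 and 25.4 CPM (median 17.4) in 9 prophylactic libraries. The regimens overlapped for every gene.

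The wider pathway was compared in the same way. In Sac/val minus Veh, Val minus Veh, Sac/val minus Val and therapeutic minus prophylactic, 0 of the 6 other PYHIN genes, 0 of 18 DNA sensing, 0 of 15 signalling and 0 of 36 interferon-stimulated genes passed in edgeR, and the medians of the lists lay between -0.16 and 0.30. Over all genes, 293, 453, 491 and 599 had an unadjusted p under 0.05 in these comparisons, and DESeq2 called 10, 2, 17 and 21. For Val minus Veh the smallest p values were those of Xaf1 (0.42, SE 0.15) and Ifi35 (0.21, SE 0.08) among stimulated genes, Irf9 (0.30, SE 0.13) and Stat2 (0.21, SE 0.14) in signalling, and Ddx41 (-0.06, SE 0.07) and Irf3 (0.08, SE 0.09) in DNA sensing. For Sac/val minus Val they were Ifi35 (-0.21, SE 0.08), Iigp1 (-0.53, SE 0.23), Irf9 (-0.27, SE 0.13), Irf1 (-0.14, SE 0.08), Irf3 (-0.12, SE 0.09) and Il1a (0.58, SE 0.48). For Sac/val minus Veh they were Oas1a (0.26, SE 0.25), Xaf1 (0.15, SE 0.15), Tyk2 (-0.09, SE 0.08), Irf7 (0.33, SE 0.30), Il1b (0.76, SE 0.59) and Ddx41 (-0.06, SE 0.07). For therapeutic minus prophylactic they were Rsad2 (0.28, SE 0.21), Cxcl10 (0.34, SE 0.26), Jak2 (0.20, SE 0.10), Ifngr1 (0.11, SE 0.10), Pycard (0.28, SE 0.23) and Nek7 (-0.07, SE 0.06). The smallest adjusted p among all these genes was 0.908.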

How the data were processed

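Every mouse gave 1 library, from its ligated artery. RNA was made into stranded mRNA libraries, per the labels' protocols. Reads were processed with Trimmomatic 0.36, STAR 2.5.2b and featureCounts of Subread 1.5.0p3 on GRCm38, per the submitters' processing notes, and the annotation release, strand setting and treatment of multi-mapping reads are not given in the sources used here. The deposited values are raw counts per gene symbol (18.96 to 28.97 M per library, median 22.78 M), and no reads were aligned here.

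CPM were computed here with TMM library sizes (factors 0.82 to 1.13), and correlations used log2 CPM with a prior count of 2. Filtering (filterByExpr) left 18628 genes. All comparisons came from edgeR 4.0.16 (R 4.3.3), whose quasi-likelihood test was fitted once to the 12 groups (residual degrees of freedom, 24), a gene passing at a Benjamini-Hochberg adjusted p under 0.05 within its comparison. Standard errors were derived from the F statistic, and are left out where a group held under 20 counts. DESeq2 1.42.0 was an alternative, with others given in the closing section. Sequences were compared with Python 3.11.15 and Biopython 1.88. The test was tried on simulated data. Counting intervals cover counting error only.

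The genes and lists were chosen with earlier results of these data known. Named from the lists are up to 4 passing genes with the smallest p per comparison, or 2 where none passed. The animal numbers in the titles name single mice and pair no libraries.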

Additional observations from a re-analysis of the deposited data

How the results depend on the processing

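No described gene passed a treatment, regimen or interaction comparison under DESeq2 size factors, the DESeq2 Wald test, no filter, a macrophage score, a thymocyte and T cell score or the animal number as covariate, the run of animal numbers as block, only the libraries compared, leaving out each library in turn, or, in the 23 of 28 comparisons that could then be fitted, leaving out the Rag1-rich libraries. The smallest adjusted p was 0.0571 with DESeq2, for Ifi202b in prophylactic Val minus Veh of B6, which rests on 1 library, and 0.0748 among the 36 fits that left out 1 library. Among these differences, none of which passed, 365 of 7056 changed sign when 1 library was left out.
The strain difference of Ifi202b was 6.28 with a prior count of 2, 10.35 without the Rag1-rich libraries, and 7.50 to 8.82 with 1 library left out, 8.82 being without B6 Val prophylactic replicate 1; the value with all libraries was 7.60, and groups at 0 make it depend on the prior count. With the macrophage score Ifi204 was at -0.32, against -0.96; DNA sensing genes counted 3 higher and 4 lower, against 1 and 12; 1 signalling gene was higher, against 0; and 1 interferon-stimulated gene was higher, against 2. Without the Rag1-rich libraries, 6 DNA sensing genes were lower, 1 interferon-stimulated gene was higher and 0 of the other PYHIN genes were higher, with 20 libraries and 5 pairs of groups left. The cause was not tested.
With the run as block the strain differences were 7.62 for Ifi202b, -0.95 for Ifi204 and 0.07 for Aim2, and the counts of the lists were equal. That block, leaving out the Rag1-rich libraries and the thymocyte score for the strain difference were chosen after seeing the data. Without the Rag1-rich libraries 5 comparisons could not be fitted (Val minus Veh and Sac/val minus Val in therapeutic 129X1, both Val interactions, and regimen by strain), since therapeutic Val of 129X1 had no library left. No paired analysis was possible because the labels give no replicate numbers shared between groups. Limits: 3 libraries a group, sequence shared within the family, a B6 reference, and tissue content that differs between libraries and strains.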
